A study of Mus musculus with 51 samples.

Results

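T lymphocytes and natural killer (NK) cells were followed in mouse femur RNA through 10 genes chosen by name, of 23358 entries in the femur expression files. Of these, 5 are T cell genes: Cd3d, Cd3e and Cd3g, the signalling chains of the T cell receptor complex, Cd8a, the coreceptor chain of cytotoxic T cells, and Lck, the kinase that starts T cell receptor signalling. The other 5 are genes of NK and cytotoxic cells: Klrd1 (CD94) and Ncr1 (NKp46), which are NK cell receptors, Nkg7 and Gzma, which encode a cytotoxic granule protein and the protease granzyme A, and Ccl5, a chemokine of cytotoxic lymphocytes. All 10 genes passed the filter on low values in both femur experiments.

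T cells recognise peptide antigens through a receptor whose signal leaves the membrane by way of the CD3 chains and Lck, whereas NK cells kill without such a receptor, guided by activating and inhibitory surface proteins. Both cell types carry granules of granzymes and release chemokines such as Ccl5. In bone marrow they are a minority beside granulocytes and B-lineage cells. Because the femurs were bulk tissue, fewer cells of a type and less RNA per cell cannot be told apart.

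The VitC experiment held 3 groups of 3 C57BL/6 femur libraries each, all from mice 20 weeks old. WT mice make vitamin C themselves. The other groups were Gulo-/- mice (allele Gulotm1Mae), which lack the last enzyme of vitamin C synthesis in every cell: VitC+ mice drank water with 3.3 g/L vitamin C throughout, and VitC+/- mice had it for 15 weeks and then went 5 weeks without. The Tet experiment held 4 groups of 3 femur libraries from C57BL/6 mice 11 weeks old on a standard diet: Ctrl, which carried Prrx1-Cre as the knockouts did, and Tet1 cKO, Tet2 cKO and Tet1/2 cKO, with floxed Tet1, Tet2 or both. Prrx1-Cre is a driver of limb mesenchyme, the source of osteoblasts, and is not a lymphocyte driver. All femurs had been flushed of marrow and stripped of periosteum, and the lymphocyte RNA measured here came from what remained. Peak lists of 5-hydroxymethylcytosine (5hmC, the mark that TET enzymes write) and of H3K27me3 and H3K9me3 (histone marks of silenced chromatin) completed the series. They came from femurs of the VitC+, VitC+/-, Ctrl and Tet1/2 cKO groups and from MC3T3-E1, a mouse calvarial osteoblast line cultured with (VitC+) or without (VitC-) vitamin C. The MC3T3-E1 cultures for 5hmC were at day 28 by their labels. The study's methods give a shorter culture for the histone marks, so the 5hmC and histone lists came from different cultures.

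Depth in the VitC experiment, read from the steps between low values, was about 31190000 to 47520000 reads in 8 libraries and 7610000 in WT replicate 1. The Tet libraries held 28600000 to 49790000 reads. The knockout targets gave only a partial check of the labels. Gulo was at 0.0126 to 0.0186 RPKM (reads scaled by transcript length and library depth) in the libraries labelled VitC+/-, at 0.0294 to 0.180 in those labelled VitC+, and at 0.522, 0.486 and 0 in those labelled WT, so WT replicate 3 showed none. Tet1 counted 532 to 773 normalised reads in the libraries labelled Tet1 cKO against 374 to 435 in Ctrl, and Tet2 counted 1834 to 2245 in those labelled Tet2 cKO against 2236 to 2512. In the libraries labelled Tet1/2 cKO, Tet1 counted 415 to 485 and Tet2 1851 to 2970. The gene totals were thus not lower throughout in the knockouts, and the Tet labels are unchecked by them.

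After VitC withdrawal all 10 genes were lower on average than in VitC+ femurs, and 3 of them passed the test: Nkg7, Cd3g and Gzma (limma, adjusted p under 0.05). Over all 14534 genes tested, 6.78% passed in the same direction and 5.15% in the other. Sequence upstream of these 3 genes is shown because they passed the test. Each line gives the 250 bases before the RefSeq start site (GRCm38.p6, the build also known as mm10), read in the direction of the gene, with capitals for matches to the motif letters CAGGAAG (Ets), TGTGGT (Runx) or GTGTGA (T-box) on either strand.
Cd3g, chr9:44980432-44980681, minus strand: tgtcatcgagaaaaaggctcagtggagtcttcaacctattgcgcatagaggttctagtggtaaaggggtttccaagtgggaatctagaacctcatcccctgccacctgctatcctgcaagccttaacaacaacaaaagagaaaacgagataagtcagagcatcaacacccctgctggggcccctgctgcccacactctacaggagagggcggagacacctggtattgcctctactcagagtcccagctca
Gzma, chr13:113100982-113101231, minus strand: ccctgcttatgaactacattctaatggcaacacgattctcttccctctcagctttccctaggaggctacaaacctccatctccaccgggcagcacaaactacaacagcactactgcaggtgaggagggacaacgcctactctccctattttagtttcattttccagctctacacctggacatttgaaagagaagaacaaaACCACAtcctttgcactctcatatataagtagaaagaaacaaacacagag
Nkg7, chr7:43436888-43437137, plus strand: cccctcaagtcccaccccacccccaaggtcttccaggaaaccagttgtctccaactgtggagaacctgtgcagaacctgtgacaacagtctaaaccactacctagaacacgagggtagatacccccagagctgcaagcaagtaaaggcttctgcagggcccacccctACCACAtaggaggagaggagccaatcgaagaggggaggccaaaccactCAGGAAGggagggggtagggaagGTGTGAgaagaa

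Nkg7 held all 3 motifs in this window, starting 83 bases (Runx, on the reverse strand), 35 bases (Ets) and 12 bases (T-box) before the start site. Gzma held a reverse-strand Runx match 50 bases before its start, and Cd3g held none of the 3. RefSeq promoters were matched for 8 of the 10 genes, all but Klrd1 and Ccl5. Lck and Ncr1 had alternative start sites, and a match before any start site of a gene was counted. The Runx letters were in 4 of the 8 (Lck, Nkg7, Gzma and Ncr1) against 15.9% of 27025 genes, the Ets letters in 3 (Cd3e, Lck and Nkg7) against 12.1%, and the T-box letters in 3 (Lck, Nkg7 and Ncr1) against 13.9%. TATAAA and the E box CAGCTG, present upstream of 14.3% and 14.7% of genes, were in no window of the 8 genes. The motifs did not overlap one another in the windows printed. CpG dinucleotides were few, with a median of 1.5 in the 250 bases over the 8 genes, 4 over 25 B-lineage genes and 6 over all genes.

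Among the T cell receptor genes, Cd3g (chromosome 9, 44969572 to 44980431, minus strand) stood at 6.23, 4.14 and 2.95 scaled RPKM in VitC+ replicates 1 to 3, at 0.847, 2.14 and 1.18 in VitC+/- and at 10.3, 4.88 and 4.48 in WT. Scaled RPKM is the deposited RPKM divided by a library factor. Every VitC+/- library was below every library of the other groups. The log2 fold change from VitC+ to VitC+/- was -1.39 ± 0.375 (SE, adjusted p = 0.0434). About 31 to 72 reads lay behind each VitC+/- value.

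Cd3d and Cd3e lie beside Cd3g on chromosome 9, at 44981769 to 44987052 (plus strand) and 44998735 to 45009663 (minus strand). Cd3e stood at 2.80, 1.73 and 1.28 scaled RPKM in VitC+, at 0.876, 1.14 and 0.687 in VitC+/- and at 2.93, 2.17 and 1.34 in WT. Its VitC+/- libraries were again below all others, but the change from VitC+ missed the threshold, with a log2 fold change of -0.76 ± 0.296 (SE, adjusted p = 0.117). Cd3d overlapped between the groups: it stood at 4.74, 2.84 and 2.62 in VitC+, at 2.54, 3.73 and 1.18 in VitC+/- and at 10.2, 4.14 and 3.09 in WT. Its log2 fold change of -0.45 ± 0.450 (SE, adjusted p = 0.547) was the smallest of the 10.

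The 3 chains are built into the same receptor complex, and a difference between their changes was not tested across the genes. In VitC+/- femurs the log2 ratio of Cd3g to Cd3d was -1.18, -0.68 and 0.00, against 0.36, 0.47 and 0.15 in VitC+ and 0.02, 0.21 and 0.47 in WT. All VitC+/- ratios were below all others. The difference from VitC+ was -0.95 and that from WT -0.85, each with p = 0.1 (exact permutation test, two-sided), the smallest p that 3 against 3 libraries can give. The pair was picked after its values had been seen, so the ratios are a description.

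Cd8a (chromosome 6, 71373427 to 71379171) stood at 2.77, 1.26 and 0.991 scaled RPKM in VitC+ and at 0.688, 1.69 and 0.502 in VitC+/-, and VitC+/- replicate 2 lay within the VitC+ range. Lck (chromosome 4, 129548344 to 129573641) stood at 6.41, 4.13 and 3.56 in VitC+ and at 2.26, 3.78 and 1.56 in VitC+/-, where replicate 2 again reached into the VitC+ range. Neither passed the test, with log2 fold changes of -0.57 ± 0.397 for Cd8a (SE, adjusted p = 0.364) and -0.81 ± 0.340 for Lck (SE, adjusted p = 0.145). VitC+/- replicate 2 was the highest of its group in all 5 T cell genes.

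Nkg7, on chromosome 7 at 43437138 to 43438246, had by far the highest level per length of the 10 genes. Its scaled RPKM was 54.0, 109.0 and 74.8 in VitC+, 23.9, 36.0 and 13.4 in VitC+/- and 109.1, 228 and 171 in WT. The 3 groups did not overlap, with WT highest and VitC+/- lowest, although the lowest WT and highest VitC+ libraries were level. From VitC+ to VitC+/- the log2 fold change was -1.73 ± 0.394 (SE, adjusted p = 0.0257). Neutrophil genes moved the same way. The summed scaled RPKM of 16 neutrophil genes ran from 31226 to 49344 in VitC+, from 8665 to 26189 in VitC+/- and from 55093 to 78294 in WT. Of the 16, 15 were lower in VitC+/- than in VitC+ and 4 of these passed the test, beside 6.78% of all genes. Of the 16, 1 gene rose and none was at 0 in a whole group. Their part in the Nkg7 result was not tested.

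Gzma (chromosome 13, 113093824 to 113100981) stood at 1.98, 3.41 and 2.36 scaled RPKM in VitC+, at 0.414, 0.832 and 0.987 in VitC+/- and at 5.56, 2.99 and 2.79 in WT. The VitC+/- libraries were the 3 lowest. Its log2 fold change was -1.31 ± 0.30 (SE, adjusted p = 0.0259), resting on about 13 to 43 reads in a VitC+/- library. Gzma overlaps Cdc20b on the opposite strand, and whether strand was used in counting is not stated, so reads of the 2 genes may not be separable.

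The NK receptors were also lowest after withdrawal. Ncr1 (chromosome 7, 4337715 to 4345184) stood at 0.660, 0.936 and 1.11 scaled RPKM in VitC+, at 0.153, 0.229 and 0.248 in VitC+/- and at 5.19, 2.80 and 0.890 in WT. WT varied most, replicate 3 lying inside the VitC+ range, and VitC+/- lay below both. With 8 to 18 reads per VitC+/- library and a pseudocount of 0.5, the log2 fold change of -0.97 ± 0.427 (SE, adjusted p = 0.160) understates the ratio of the levels. Klrd1 (chromosome 6, 129588092 to 129598775) stood at 8.03, 5.97 and 4.31 in VitC+, at 3.84, 3.80 and 2.16 in VitC+/- and at 13.6, 7.52 and 5.99 in WT. Its VitC+ and VitC+/- libraries did not overlap, but the log2 fold change of -0.81 ± 0.333 (SE, adjusted p = 0.137) missed the threshold.

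Ccl5 (chromosome 11, 83525778 to 83530518) stood at 34.0, 13.9 and 16.0 scaled RPKM in VitC+, at 8.58, 12.3 and 2.88 in VitC+/- and at 42.9, 27.8 and 12.9 in WT. The VitC+/- libraries were the lowest 3, the highest of them just under the lowest WT library, an order that turned in the RPKM as deposited (13.0 in VitC+/- replicate 2 and 12.5 in WT replicate 3). The log2 fold change was -1.46 ± 0.567 (SE, adjusted p = 0.118). Ccl5 overlaps Gm32650 on the opposite strand, with the same limit on counting as for Gzma. Type I interferon response genes, a family with which Ccl5 is often induced, were lower too. Of 30 tested, 28 were lower and 22 of these passed the test, beside 6.78% of all genes. Their median log2 fold change was -1.29, and their summed scaled RPKM was 115 to 167 in VitC+/- against 343 to 435 in VitC+. Their part in the level of Ccl5 was not tested.

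**Figure D1:**
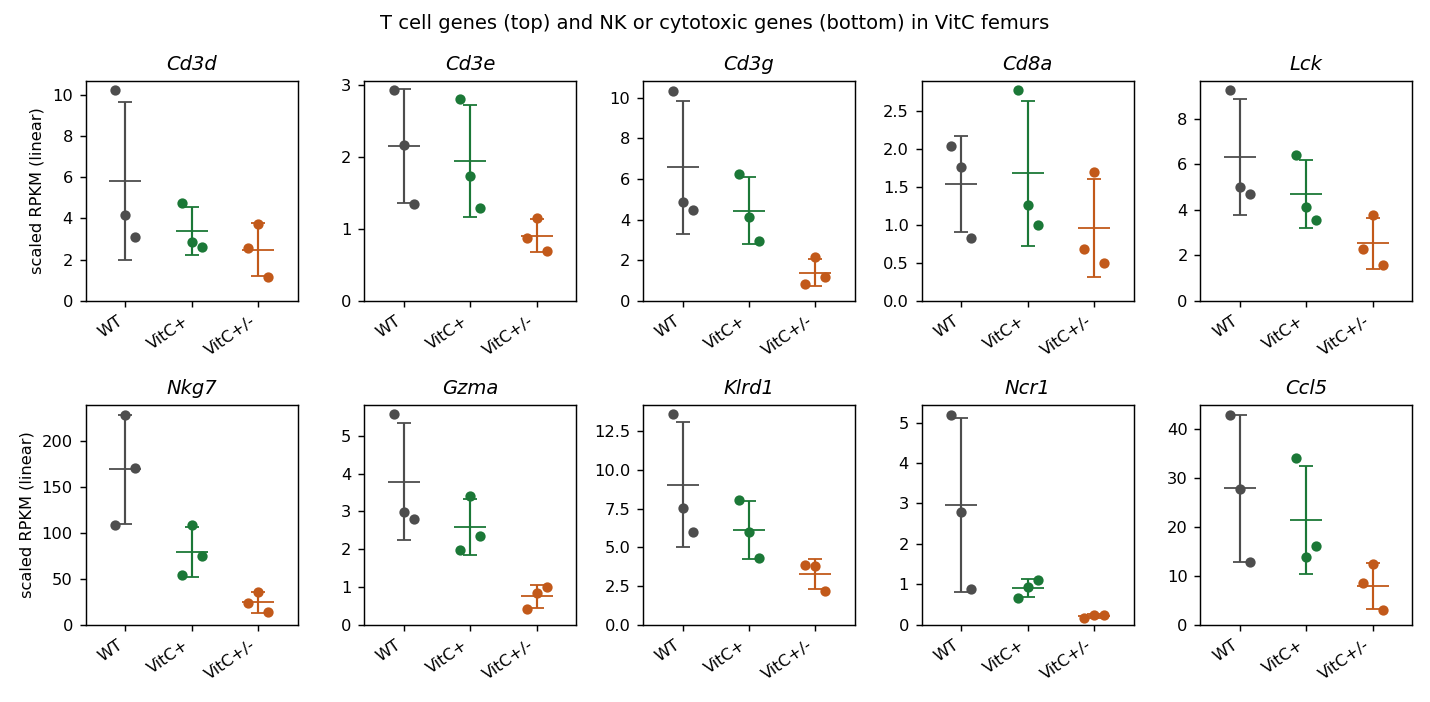
Scaled RPKM (linear axis) of the 5 T cell genes (top) and 5 NK or cytotoxic genes (bottom) in the 9 VitC femur libraries. Points are libraries, horizontal lines are group means and bars are 1 SD (n = 3). On this scale VitC+/- libraries are the lowest 3 for 7 of the 10 genes (Ccl5 not in the RPKM as deposited), and overlap other groups for Cd3d, Cd8a and Lck.

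In sum over the 10 genes, 7 had VitC+/- libraries wholly below VitC+ libraries, against 19.3% of all genes tested. The exceptions were Cd3d, Cd8a and Lck. The median log2 fold change was -0.89, against 0.02 for all genes. The T cell genes had a median of -0.76, with 1 of 5 passing and 2 of 5 without overlap, and the NK and cytotoxic genes a median of -1.31, with 2 of 5 passing and all 5 without overlap. The calls did not hold with every library left out in turn. Without VitC+ replicate 2, VitC+ replicate 3 or VitC+/- replicate 1, 0 of the 10 passed, without VitC+/- replicate 3 Gzma alone did, and without WT replicate 3 or VitC+ replicate 1 Nkg7 and Gzma did. The log2 fold changes stayed between -2.05 and -1.36 for Nkg7, -1.66 and -1.15 for Cd3g and -1.47 and -1.10 for Gzma. Calls over the whole table fell in the same fits, to 357 lower and 169 higher without VitC+ replicate 2, 324 and 214 without VitC+ replicate 3, and 317 and 185 without VitC+/- replicate 1. With the RPKM used as deposited, Cd3g alone passed, the median of all genes shifted to 0.12 and the genes called over the whole table were 418 lower and 486 higher, in place of 985 and 748.

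Against WT, all 10 genes were lower in VitC+/- and 7 passed the test, when 14.0% of all genes passed in that direction and 14.5% in the other. Nkg7 led with a log2 fold change of -2.81 ± 0.394 (SE, adjusted p = 0.00183), followed by Ncr1 at -2.07 ± 0.427 (SE, adjusted p = 0.00799). The others that passed were Cd3g at -1.87 (adjusted p = 0.00719), Ccl5 at -1.79 (0.0418), Gzma at -1.76 (0.00363), Klrd1 at -1.30 (0.0191) and Lck at -1.18 (0.0301). Cd3e at -0.88 (0.0506), Cd3d at -1.01 (0.119) and Cd8a at -0.52 (0.358) did not pass. All 5 NK and cytotoxic genes passed, and 2 of 5 T cell genes. For 8 of the 10, no VitC+/- library reached the WT range, against 20.0% of all genes, and Ccl5 was among them on the scaled values only. WT replicate 1, the shallowest library, was the highest of all 9 for Cd3d, Cd3e, Cd3g, Lck, Gzma, Klrd1, Ncr1 and Ccl5, and without it 5 genes passed (Cd3g, Nkg7, Gzma, Klrd1 and Ncr1). Without VitC+/- replicate 3, 4 passed (Cd3g, Nkg7, Gzma and Ncr1).

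Between WT and VitC+, both supplied with vitamin C, no gene of the 14534 passed in limma (0%), although 1798 were lower and 1252 higher in WT at an unadjusted p under 0.05. Without WT replicate 1, 382 passed lower and 38 higher in WT, none of them among the 10. Of the 10 genes, 9 were higher in WT, with a median log2 difference of 0.46, and 2 had an unadjusted p under 0.05. These were Nkg7, higher by 1.09 ± 0.394 (SE, adjusted p = 0.170), and Ncr1, higher by 1.09 ± 0.427 (SE, adjusted p = 0.191). Nkg7 was the single gene of the 10 whose WT and VitC+ libraries did not overlap, when 12.8% of all genes were so separated with WT higher. In the RPKM as deposited its groups overlapped, VitC+ replicate 2 standing at 114 and WT replicate 1 at 106. Cd8a was the one gene lower in WT, at -0.06. The 3 comparisons share libraries, so their values are not independent of one another.

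Longer lists of the same cell types, outside the 10, were counted next. Of 38 other T cell genes 35 were tested, 26 were lower in VitC+/- than in VitC+ and 2 of these passed, a share below the 6.78% of all genes: Cd2, an adhesion receptor of T and NK cells, at -1.38, and Prkcq, a kinase downstream of the T cell receptor, at -0.96. Cd2 stood at 4.83, 5.25 and 5.14 scaled RPKM in VitC+ and at 1.17, 2.66 and 1.37 in VitC+/-, without overlap. The T cell genes with the highest mean levels did not pass: Fyb, an adaptor protein, at -0.59 (adjusted p = 0.0761), S1pr1, the receptor that guides lymphocyte exit and that endothelium also expresses, at 0.28 (0.533), Lat, the adaptor of T cell receptor signalling, at -0.05 (0.899), and Ptpn22, a phosphatase of lymphocytes, at 0.52 (0.121). The list had a median of -0.29 and a summed scaled RPKM of 99.1 to 116 in VitC+/-, 116 to 148 in VitC+ and 114 to 142 in WT. Against WT, 26 of the 35 were lower and 7 of these passed, beside 14.0% of all genes. S1pr1 passed in the other direction, higher by 1.34.

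Of 32 other NK and cytotoxic genes 29 were tested, 25 were lower in VitC+/- than in VitC+ and 5 passed, beside 6.78% of all genes, with a median of -0.44. The summed scaled RPKM, which weighs abundant genes most, overlapped, at 46.2 to 85.6 in VitC+/- and 68.8 to 94.7 in VitC+, and was 117 to 158 in WT. The 5 genes that passed against VitC+ were Xcl1, a chemokine of NK and CD8 T cells, at -2.01, Klre1 and Klrb1f, NK lectin-like receptors, at -1.80 and -1.35, Slamf7, a receptor of NK and plasma cells, at -1.29, and Klrb1c (NK1.1), the NK cell marker of this strain, at -1.03. Xcl1 stood at 3.77, 4.39 and 2.38 scaled RPKM in VitC+ and at 0.724, 0.303 and 0.441 in VitC+/-. Klre1 stood at 2.96, 2.22 and 1.84 in VitC+ and at 0.245, 0.20 and 0.508 in VitC+/-. In both genes every VitC+/- library was several-fold below every VitC+ library. Klra4, an NK receptor gene, was listed at 0 in all VitC+ and VitC+/- libraries. Against WT 27 of the 29 were lower and 13 of these passed, beside 14.0% of all genes.

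B-lineage genes were set beside these without a test between the lists. Of 33 named genes 29 were tested, 28 were lower in VitC+/- than in VitC+ and 18 passed, beside 6.78% of all genes. The median log2 fold change was -1.48, against -0.89 for the 10 T and NK genes. Genes of B cell precursors led, among them Vpreb3 at -4.25 and the surrogate light chain genes Igll1 at -3.83 and Vpreb1 at -3.75. Dntt, the enzyme that adds bases at antigen receptor joints, changed by -3.13. Fcrla and the transcription factor gene Spib followed at -2.80 and -2.67. The pan-B genes Cd79a and Cd79b, the signalling chains of the B cell receptor, changed by -2.23 and -1.96, and Ms4a1 (CD20) by -1.33. Summed scaled RPKM of the B-lineage list was 43.8 to 61.4 in VitC+/- against 160 to 267 in VitC+ and 116 to 284 in WT, so VitC+/- lay below both groups, whereas the sums of the T cell list overlapped. Such sums weigh abundant genes most. In the T cell list S1pr1 stood at 15.5 to 26.9 in VitC+/- and 14.4 to 21.4 in VitC+, and the less abundant Cd2 at 1.17 to 2.66 and 4.83 to 5.25. Against WT 28 of the 29 B-lineage genes were lower and 20 of these passed, beside 14.0% of all genes. The B-lineage median was -1.40, when the 10 T and NK genes had a median of -1.53. The B-lineage count against VitC+ was 5 without VitC+ replicate 2, 7 without VitC+ replicate 3 and 7 without VitC+/- replicate 1. Against WT it was 11 without WT replicate 3 and 13 without VitC+/- replicate 1.

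**Figure D2:**
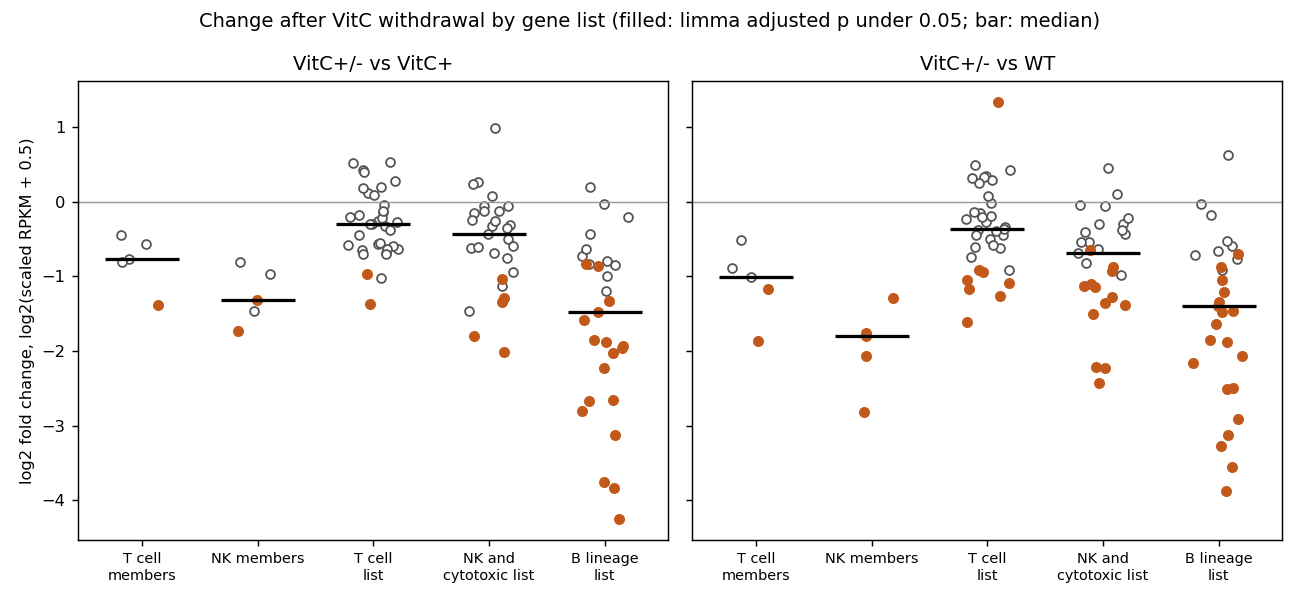
Log2 fold change on the log2(scaled RPKM + 0.5) scale, per gene, for the 5 T cell and 5 NK genes and for the longer T cell, NK and cytotoxic, and B-lineage lists, in VitC+/- against VitC+ (left) and WT (right). Filled points passed limma at an adjusted p under 0.05 and bars are medians. Against VitC+ the B-lineage median of -1.48 is the lowest of the 5 columns, and against WT the NK genes have the lowest, -1.79.

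Whether B-lineage RNA fell more than T cell RNA in the same libraries was tested on a pan-B to pan-T ratio. The log2 ratio of Cd79a to Cd3e was 1.87 ± 0.666 in VitC+/-, 3.34 ± 1.07 in VitC+ and 3.06 ± 0.939 in WT (mean ± SD, n = 3). Per library it was 1.13, 2.09 and 2.41 in VitC+/- and 2.2, 3.51 and 4.32 in VitC+, so the highest VitC+/- library passed the lowest VitC+ library. The difference of -1.47 had p = 0.2 (exact permutation test, two-sided, where 0.1 is the smallest possible), and that from WT was -1.18 with the same p. For Cd79b over Cd3g the difference from VitC+ was -0.57 with p = 0.4 (exact permutation test). With 3 libraries a group, neither result could have passed 0.05.

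Other lists gave the setting, when 6.78% of all genes passed lower and 5.15% higher against VitC+. Osteoblast and osteocyte genes had a median log2 fold change of -1.84 between VitC+/- and VitC+, with 9 of 18 lower and 1 higher past the threshold, and dendritic cell genes -0.80, with 5 of 11 lower. Monocyte and macrophage genes stood at 0.03, with 4 lower and 3 higher of 16, and erythroid genes at 0.45, with 2 of 10 higher. Against WT the osteoblast and osteocyte median was -0.05, with 3 lower and 2 higher of 18 past the threshold. Of all genes, 14.0% passed lower and 14.5% higher against WT. All 18 of these bone genes were lower in WT than in VitC+ (median -1.67), each at an unadjusted p under 0.05 (limma), with 0 past the threshold. Genes of a list can vary together, so a difference in bone RNA between the reference groups was not established. The part of these lists in the T and NK results was not tested.

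Genes whose pattern was most like that of Cd3e over the 9 libraries were looked for among 12281 genes by Pearson's r of log2 values. Of genes outside every list the nearest included Lpar6 (r = 0.974), Cyp27a1 (0.95) and Sltm (0.938). Among the 10, Klrd1 and Ccl5 (both 0.944), Lck (0.940) and Cd3g (0.933) were as near, Cd8a (0.883) and Cd3d (0.858) less so. Ncr1 (0.763), Gzma (0.761) and Nkg7 (0.657) were the least alike. The 9 points share groups and library scale, and these values describe them only.

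In the Tet experiment none of the 10 genes passed the test in any knockout (limma, 0 of 10 in each, with 0 at an unadjusted p under 0.05). Few genes of any kind passed: 0.00588% of 16996 in each direction in Tet1 cKO and in Tet2 cKO, and 0% in Tet1/2 cKO, where 557 were lower and 300 higher at an unadjusted p under 0.05. On recovered whole reads, edgeR and DESeq2 also called 0 of the 10 in each comparison. Over all genes edgeR called 1 lower in Tet2 cKO and 0 in the others, and DESeq2 called 13 in Tet1 cKO, 15 in Tet2 cKO and 11 in Tet1/2 cKO. Values here are normalised counts, which are not per length and are compared within a gene only.

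Tet2 cKO had the lowest median over the 10 genes among the knockouts. All 10 genes were lower than in Ctrl, with a median log2 difference of -0.50 against -0.01 for all genes. Gzma counted 207, 353 and 320 in Ctrl and 66.8, 272 and 135 in Tet2 cKO, and its difference of -1.08 ± 0.534 (SE, adjusted p = 1) was the largest of the 10. Klrd1 counted 205, 310 and 277 in Ctrl and 105, 268 and 108 in Tet2 cKO, with a difference of -0.84 ± 0.397 (SE). Ncr1 was the one gene without overlap, at 192, 206 and 184 in Ctrl and 94.0, 156 and 154 in Tet2 cKO, when 3.40% of all genes were separated in that direction. Tet2 cKO replicate 1 was the lowest library of its group for all 10 genes, and without it the median was -0.15 and 6 of the 10 were lower. Its B-lineage sum was low as well, the group running from 26908 to 73648 normalised counts against 62355 to 79227 in Ctrl.

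Tet1 cKO and Tet1/2 cKO lay nearer to Ctrl. The median was -0.16 in Tet1 cKO and -0.11 in Tet1/2 cKO, with 7 of 10 genes lower in each. Cd3e counted 124, 71.8 and 74.2 in Ctrl, 69.6, 146 and 91.4 in Tet1 cKO and 38.2, 113 and 99.8 in Tet1/2 cKO, so that the groups overlapped, with Tet1/2 cKO replicate 1 below all other libraries of the 3 groups. Lck counted 680, 697 and 682 in Ctrl and 531, 663 and 619 in Tet1/2 cKO, without overlap but by -0.19 ± 0.332 (SE) on the log2 scale, when 9.97% of all genes were so separated. Nkg7 was higher in Tet1/2 cKO, at 4727, 3805 and 2838 against 3328, 1788 and 2628, with a difference of 0.57 ± 0.419 (SE, adjusted p = 0.725) and overlapping groups. Neutrophil genes again lay in the same direction, 16 of 17 being higher in Tet1/2 cKO with a median of 0.71 and none past the threshold. B-lineage genes were lower in 31 of 33 cases in Tet1/2 cKO, with a median of -0.36 and 0 past the threshold in limma, 2 having an unadjusted p under 0.05. In Tet2 cKO 28 of the 33 were lower, with a median of -0.36, and in Tet1 cKO 6 were lower, with a median of 0.21.

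**Figure D3:**
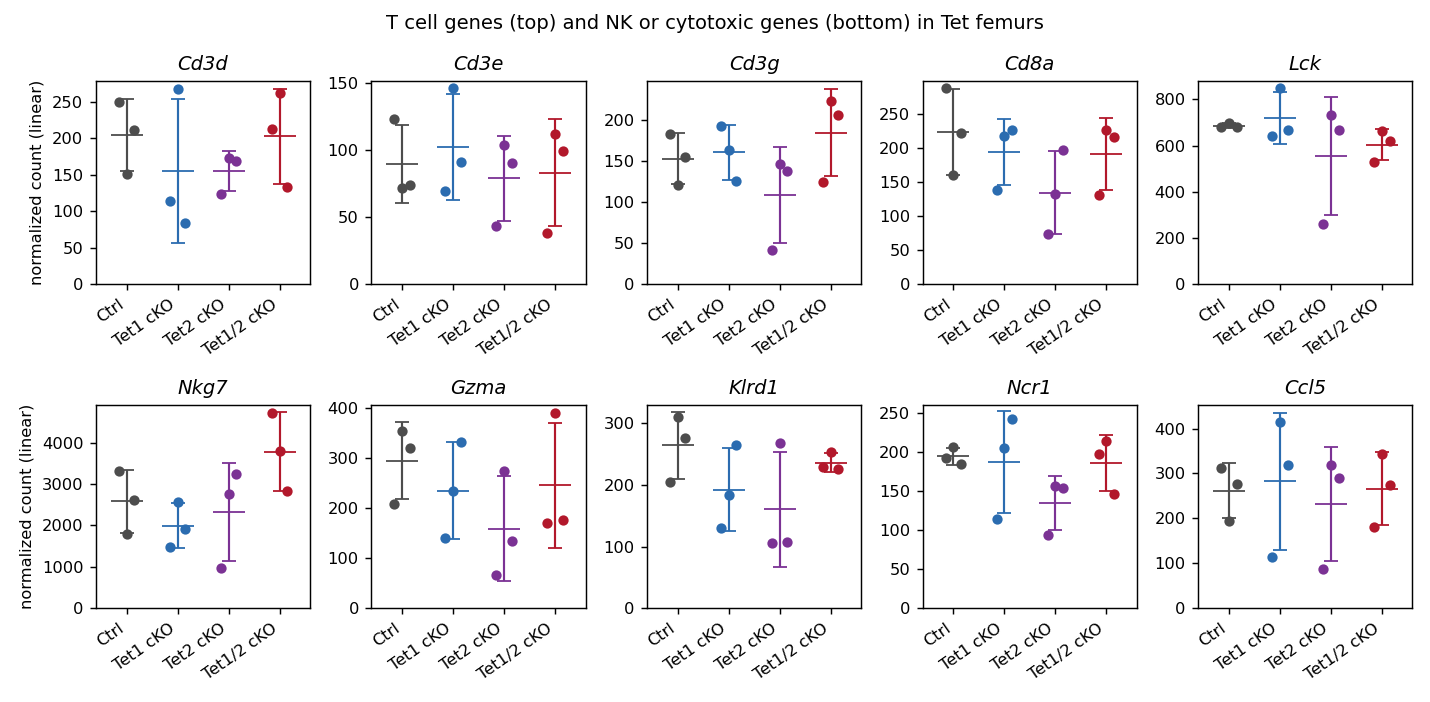
Normalised counts (linear axis) of the 10 genes in the 12 Tet femur libraries. Points are libraries, horizontal lines are group means and bars are 1 SD (n = 3). Tet2 cKO replicate 1 is the lowest point of its group in every panel, and no group is set apart from Ctrl by the test.

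Peaks near the genes were counted where the peak centre lay within 30 kb of the start site. There was 1 deposited list per group, so no spread between animals or dishes can be given and nothing was tested. The windows of Cd3d, Cd3e and Cd3g overlap and share peaks.

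In MC3T3-E1 osteoblasts, which are not lymphoid, broad H3K27me3 domains lay over the T cell loci. Without vitamin C a domain at chr9:44969415-44992055 (fold enrichment 2.90) covered the start sites of Cd3g and Cd3d, and another at chr9:44995127-45014010 that of Cd3e. Domains at chr6:71371282-71377778 and chr4:129566852-129579430 covered those of Cd8a and Lck, and one at chr13:113100079-113101455 covered that of Gzma and the upstream bases printed above. With vitamin C the domains at start sites were shorter, at chr9:44979454-44985917, chr9:44999171-45010622, chr6:71372568-71373950 and chr4:129570048-129574544, and none covered Gzma. In all, 8 of the 10 genes had less H3K27me3 length in VitC+ than in VitC- cells, and Nkg7 and Ncr1 had no peak in either. The mean length per gene was 23384 bp in VitC- and 14978 bp in VitC+ over the 10 genes, and 9084 and 5962 bp over 20407 genes, so the length was shorter in VitC+ cells over all genes too. The mean over 30 B-lineage genes was 22208 bp in VitC- and 16541 bp in VitC+. Neither the length nor its shortening was thus particular to the T and NK genes. The number of peaks went the other way, with means of 4.4 in VitC- and 6.4 in VitC+ over the 10 genes. Fold enrichment at the Cd3, Cd8a and Lck start sites was 2.74 to 2.90 in VitC- and 3.06 to 3.20 in VitC+. The medians of the whole lists were 2.44 and 2.77. The domains at the start sites had a −log10 q of 1.91 to 2.91 in VitC- and 2.09 to 2.31 in VitC+ cells. H3K9me3 was scarce, with peaks near Cd8a and Gzma in VitC- cells, and near these and 1 peak shared by the windows of the 3 Cd3 genes in VitC+ cells.

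In day 28 MC3T3-E1 cultures, 5hmC length was less near all 10 genes in VitC+ than in VitC-, with means of 1535 and 3380 bp. Within 10 kb it was less near 9, and more near Ccl5 (1290 and 974 bp). Over all genes the order was the other way, 6083 bp in VitC+ and 3470 bp in VitC-. Nkg7, for example, had 5 peaks covering 1920 bp in VitC+ and 11 covering 6051 bp in VitC- cells.

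Femur 5hmC lists differed by genotype. In Tet1/2 cKO all 10 genes had less 5hmC length than in Ctrl, with means of 1548 and 4654 bp, against 4137 and 9141 bp over all genes. Nkg7 had 15 peaks (10266 bp) in Ctrl and 6 (4102 bp) in Tet1/2 cKO, Lck 13 (7978 bp) and 4 (2484 bp), and Cd3e 6 (5970 bp) and 2 (929 bp). These lists held 259326 peaks for Ctrl and 146626 for Tet1/2 cKO, so the whole list was shorter. With a window of 10 kb, 5 of the 10 genes had less, the others having no peak in Ctrl.

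After VitC withdrawal 5hmC length near the 10 genes changed little in sum, from a mean of 2403 bp in VitC+ to 2476 bp in VitC+/-, with 6.3 peaks per gene in each. It was less in VitC+/- for 7 genes, among them Cd3g and Cd3d (2150 and 985 bp), and more for 3. Klrd1 had 7 peaks (2661 bp) in VitC+ and 12 (5549 bp) in VitC+/-, Ncr1 3 (1106 bp) and 7 (3780 bp), and Nkg7 2 in each (817 and 973 bp). The direction depended on the settings: 6 genes had less and 4 more within 10 kb, and 5 had less and 5 more with peaks of a −log10 q of at least 5, where Lck and Gzma also had more. Over all genes the means were 4071 bp in VitC+ and 3690 bp in VitC+/-. Medians went the other way in both. They were 2150 bp in VitC+ and 2029 bp in VitC+/- over the 10 genes, and 2709 and 2800 bp over all genes.

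**Figure D4:**
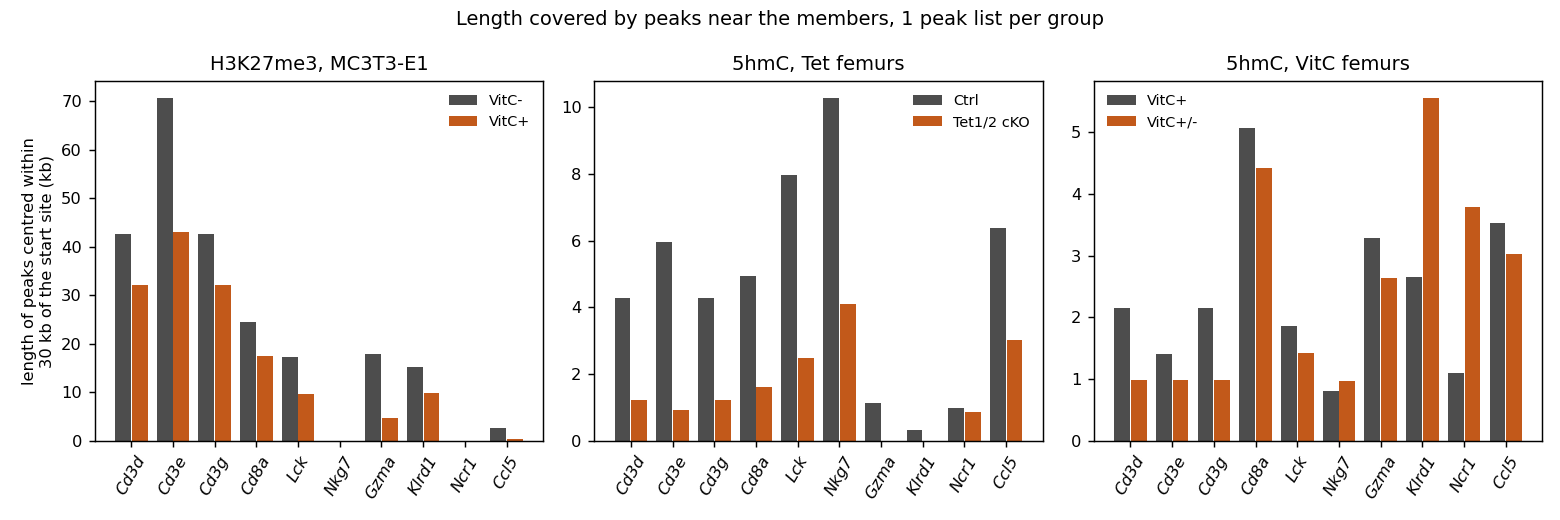
Length (kb) of peaks centred within 30 kb of each start site, 1 peak list per group: H3K27me3 in MC3T3-E1 (left), 5hmC in Tet femurs (middle) and 5hmC in VitC femurs (right), each panel with its own axis from 0. Bars are shorter in VitC+ cells for 8 genes and in Tet1/2 cKO for all 10, while in VitC femurs Klrd1, Ncr1 and Nkg7 have longer bars in VitC+/-.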

How the data were processed

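RNA from 9 VitC femur and 12 Tet femur libraries was analysed. The 10 genes and all gene lists were chosen with earlier results of these data known. Per the labels, the authors trimmed reads with Trim Galore 0.4.3.1 and aligned them to mm10 with STAR 2.6.0b-1. For the VitC femurs they deposited RPKM per gene, and the study's methods name cufflinks for FPKM without saying whether it made these values. For the Tet femurs the deposited signal is a normalised count per gene, from featureCounts 1.6.3 and DESeq2 2.11.40.2. Peak lists were deposited with a fold enrichment ratio and a −log10 q-value per peak, from reads the authors aligned with BWA 0.7.15.1 and called with MACS2. hMeDIP peaks were called on pooled samples.

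RPKM were divided by median-of-ratios factors, filtered at a mean of 0.25 over 9 libraries and fitted as log2(value + 0.5) with limma 3.58.1 (trend, R 4.3.3) over 14534 genes. Normalised counts with a mean of at least 5 were fitted as log2(value + 1) over 16996 genes. Fold changes are on these scales and understate the change of low genes. Benjamini-Hochberg adjustment covered all genes tested, with a threshold of 0.05. The files held no raw counts, so a count test served as an alternative only: edgeR 4.0.16 and DESeq2 1.42.0 ran on whole reads recovered from 11 Tet libraries (100% of values whole within 0.05), without Tet1 cKO replicate 3, whose divisor is close to 1. In the RPKM libraries 94.0 to 95.9% of low values were whole within 0.1, which gave their depth. Single ratios had exact permutation tests over libraries. The labels number replicates without naming animals, so p-values measure the spread between these libraries.

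The text names all 10 genes and, from the T cell, NK and B-lineage lists, up to 6 genes with the largest change past the threshold in VitC+/- against VitC+, or, where fewer than 3 passed, up to 4 with the highest mean. Cd2 and Prkcq fall outside this rule and were named after their values were seen. Cd79a, Cd79b and Ms4a1 are always named, as are genes most like Cd3e in pattern, and some genes these rules select are not reported here. The code was tested on simulated data. Alternatives covered pseudocount, filter, scaling, libraries in the fit, replicate block, each library left out, count tools, peak window and q threshold. Same-numbered libraries did not deviate together in every pair (r from -0.47 to 0.43), so they were not taken as pairs. Promoter sequences are from RefSeq (GRCm38.p6). Input libraries were not used.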

Additional observations from a re-analysis of the deposited data

How the results depend on the processing

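All 10 genes stayed lower in VitC+/- than in VitC+ and than in WT under each of the 17 alternatives to either comparison. Their median ran from -1.25 to -0.72 and from -1.72 to -1.15, and the number that passed from 0 to 5 and from 4 to 9. Against VitC+ it was 1 with RPKM as deposited and 5 with the replicate number as a block (Cd3g, Nkg7, Gzma, Klrd1 and Ccl5). The block was no pairing of animals, since same-numbered libraries did not all deviate together, and against WT it gave 9. Leaving out 1 library gave 0 to 3 genes against VitC+, 4 to 8 against WT, and 5 to 20 and 11 to 21 B-lineage genes. Over the whole table the calls against VitC+ fell from 985 lower and 748 higher to as few as 317 and 185 (without VitC+/- replicate 1), and those against WT from 2034 and 2101 to 1150 and 1189 (without WT replicate 3). WT against VitC+, with 0 calls, had 477 lower and 107 higher under the block. With a window of 10 kb, 5 of the 10 genes had less 5hmC in Tet1/2 cKO. At a −log10 q of at least 5 no H3K27me3 peak was left near the 10 genes, so that alternative gave no value. For these changes the cause was not tested beyond the smaller number of libraries or shorter window. The ratio of Cd79a to Cd3e with a pseudocount of 0.1 differed by -1.36 (p = 0.3, exact permutation test).

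Differences near 0 changed sign. Cd8a in WT against VitC+ was 0.0214 with RPKM as deposited, and Ccl5 in Tet1 cKO was 0.000266 with edgeR and 0.0147 with DESeq2. With 1 library left out, WT against VitC+ ran from -0.081 to 0.36 for Cd3e, -0.0431 to 0.80 for Ccl5 and -0.29 to 0.28 for Cd8a. Tet1 cKO ran from -0.41 to 0.0276 for Cd8a, -0.42 to 0.50 for Ccl5, -0.0911 to 0.24 for Cd3g, -0.34 to 0.20 for Ncr1, -0.13 to 0.42 for Cd3e and -0.0695 to 0.13 for Lck. Tet2 cKO ran from -0.47 to 0.15 for Cd3e, -0.72 to 0.0263 for Lck, -0.60 to 0.26 for Nkg7 and -0.69 to 0.24 for Ccl5. Tet1/2 cKO ran from -0.25 to 0.24 for Cd3d, -0.49 to 0.28 for Cd3e, -0.20 to 0.26 for Ccl5, -0.44 to 0.0227 for Cd8a and -0.19 to 0.0837 for Ncr1. None of the 10 genes passed in any Tet comparison under any of 19 alternatives.

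WT replicate 1, at about 7610000 reads, limits the WT values of low genes, and Ncr1, at 8 to 18 reads in VitC+/-, has the fewest reads of the 10.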
